A study of Mus musculus with 16 samples.

Results

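Transcripts of 10 genes that mark tissue-resident macrophages were measured in the adipose tissue of lean and obese mice: Csf1r, Maf, Lyve1, Timd4, Folr2, Mrc1, Cd163, Clec10a, Mgl2 and Retnla. They were found by matching the RefSeq transcripts of the expression table to these symbols, which gave 22 of the table's 130343 rows, 15 of them with at least 1 count. One row of each gene held at least 97.7% of that gene's counts. The leading rows of 9 genes passed the filter on low values (a level above 1 CPM, read counts scaled to a common library total, in at least 3 of 16 libraries), and Cd163 did not. The mice were wild-type (WT) male C57BL/6J animals, 4 lean on normal laboratory diet and 4 obese on a high-fat diet with 42% of its energy from fat and 0.2% cholesterol. Both diets began at 10 weeks of age and lasted 12 to 14 months. Each mouse gave 1 library from subcutaneous adipose tissue (SAT, the left and right inguinal depots combined) and 1 from mesenteric visceral adipose tissue (VAT), so that 4 groups of 4 libraries were compared. SAT and VAT libraries with the same diet and number in the labels were taken as those of 1 mouse. Visible vessels were dissected away from the tissue before it was frozen, and cells were not sorted. Each value is therefore an average over adipocytes, the remaining blood and lymph vessels, immune cells and, in VAT, the mesothelium that covers it.

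Macrophages of adipose tissue clear dead cells, lipid and debris. Those that live long in the tissue and lie along its vessels are known for scavenger receptors and lectins on their surface, and they depend on signals through the receptor CSF1R. Macrophages that arrive from blood monocytes during obesity are known to gather around dying adipocytes and to carry another set of genes, those of lipid handling. The markers of resident cells are shared in part with other cell types: LYVE1 also marks lymphatic endothelium, and TIM4 is also found on some B cells.

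Total counts lay between 1256082 and 16614407 per library and were lowest in VAT of lean replicate 1. Scd1, a lipogenic enzyme of adipocytes, took 12.5% to 25.7% of all counts in the obese libraries and 14.0% in SAT of lean replicate 2. TMM factors, which correct a library's total for differences in RNA composition, were 0.788 to 0.880 in SAT of obese mice. In VAT of obese mice they were 1.01 to 1.17. All CPM values below are scaled with the TMM factors. The depot labels matched the tissue markers: the summed CPM of 4 mesothelial genes was 237 to 581 in VAT and 0.154 to 1.41 in SAT. Adgre1, which encodes the macrophage antigen F4/80, had 0 to 3 counts per library. Low counts of a gene were therefore not read as low expression, and levels were compared between groups and not between genes.

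The promoters of Retnla and Mrc1 are shown because the transcripts of these genes changed in opposite directions in SAT of obese mice. The sequences are from RefSeq on build GRCm38.p6, 250 bases before to 50 bases after the start site, both on the plus strand, at chr16:48842359-48842658 for Retnla and chr2:14229164-14229463 for Mrc1. Capitals mark the letters searched for on both strands.
Retnla: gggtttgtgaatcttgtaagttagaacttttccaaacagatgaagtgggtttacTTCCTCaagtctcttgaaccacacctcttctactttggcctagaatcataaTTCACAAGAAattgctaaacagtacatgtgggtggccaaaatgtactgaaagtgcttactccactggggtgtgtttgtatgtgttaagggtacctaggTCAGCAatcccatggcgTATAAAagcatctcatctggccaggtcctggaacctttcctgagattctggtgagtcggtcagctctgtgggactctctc
Mrc1: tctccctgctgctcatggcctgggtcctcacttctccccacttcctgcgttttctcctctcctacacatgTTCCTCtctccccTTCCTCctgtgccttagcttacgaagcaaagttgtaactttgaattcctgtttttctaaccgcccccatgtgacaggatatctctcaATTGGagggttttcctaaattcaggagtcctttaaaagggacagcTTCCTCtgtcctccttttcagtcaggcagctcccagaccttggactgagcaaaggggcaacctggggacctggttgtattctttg
The Retnla window holds 4 of the 5 motifs searched. The PU.1 core GAGGAA lies on the minus strand 196 bases before the start site and the STAT6 palindrome (TTC, any 4 bases, then GAA) 145 bases before it. A partial MAF recognition element, TGCTGA, lies on the minus strand at 47 bases and TATAAA at 30 bases. The Mrc1 window holds the PU.1 core 3 times on the minus strand, 180, 167 and 35 bases before the start site, and a reversed CCAAT box at 80 bases. Matches did not overlap within either window. Among 32851 RefSeq promoters of this length, 28.3% hold the PU.1 core, 19.5% the partial MAF element, 37.4% the CCAAT box, 13.6% TATAAA and 6.95% the STAT6 palindrome. Of the 6 members found in the promoter table, 3 hold the PU.1 core (Mgl2, Mrc1 and Retnla), 3 the partial MAF element (Folr2, Retnla and Timd4) and 4 the CCAAT box (Cd163, Mgl2, Mrc1 and Timd4). A match is a description of the letters and not a binding site.

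Clec10a and Mgl2 are near copies, and a stretch of their coding sequence is shown because a read that lies wholly within it matches both genes. They are neighbours on chromosome 11 of GRCm39, Mgl2 at chr11:70020954-70028376 and Clec10a at chr11:70047023-70061660, both on the plus strand with 18646 bases between them. Their coding sequences, of 1143 and 924 bases, are identical at 90.4% of 910 aligned positions. The longest run they share is 183 bases, coding positions 550 to 732 of Mgl2 (exons 7 to 9) and 502 to 684 of Clec10a (exons 6 to 8).
Shared by Mgl2 and Clec10a: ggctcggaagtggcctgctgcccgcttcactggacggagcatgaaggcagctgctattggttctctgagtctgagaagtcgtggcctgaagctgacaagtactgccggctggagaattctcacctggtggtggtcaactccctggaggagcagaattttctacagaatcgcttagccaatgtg
Windows of the study's read length that occur in both genes make up 8.53% of those in Mgl2 and 10.8% of those in Clec10a. For windows of 75 bases, the shortest reads kept after trimming, the shares are 13.6% and 17.1%. These shares count single windows of coding sequence. The mate of a read pair can lie outside the shared stretch, and how shared reads were counted is not given in the sources used here, so the counts of both genes are uncertain by an amount that was not measured.

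Csf1r, Mrc1 and Folr2 rose in obese mice in both depots, by 1.63-fold to 1.90-fold. Csf1r, the receptor for the growth factors CSF1 and IL-34 on which macrophages depend, stood at 252, 291, 236 and 259 CPM in SAT of lean replicates 1 to 4 and at 474, 383, 563 and 401 CPM in SAT of obese replicates 1 to 4. In VAT it was 452, 474, 398 and 433 CPM in lean and 696, 887, 776 and 949.9 CPM in obese mice. Every obese library lay above every lean library of the same depot. The log2 fold change was 0.81 (SE 0.13, adjusted p = 0.00022) in SAT and 0.91 (SE 0.13, adjusted p = 5.26e-05) in VAT, by edgeR's quasi-likelihood test with Benjamini-Hochberg adjustment over 13288 rows, as for all adjusted p-values of rows below. In these bulk libraries a change in the number of cells of a type and a change in RNA per cell cannot be told apart.

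Mrc1 (GRCm39 chr2:14234151-14336926, plus strand) encodes CD206, the mannose receptor that takes up glycoproteins. Its transcripts measured 344, 421, 307 and 399.6 CPM in SAT of lean mice against 598, 476, 706 and 621 CPM in SAT of obese mice, and 495, 545, 478 and 495 CPM in VAT of lean mice against 808, 827, 794 and 961 CPM in VAT of obese mice. The diets did not overlap in either depot. Mrc1 rose by 0.71 on the log2 scale in SAT (SE 0.12, edgeR adjusted p = 0.000605) and by 0.75 in VAT (SE 0.12, adjusted p = 0.000298). Mrc1 and Csf1r kept their calls in SAT and in VAT without any single mouse and under every alternative tried.

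Folr2 (chr7:101489195-101506401, minus strand) encodes the folate receptor beta. It was 9.67, 16.7, 9.15 and 17.2 CPM in SAT of lean mice and 19.8, 18.1, 25.5 and 25.2 CPM in SAT of obese mice, with 17.3, 21.6, 15.1 and 15.0 CPM and 28.7, 34.1, 24.6 and 43.3 CPM in VAT. Again no obese library fell within the lean range of its depot. The increase was 0.78 in SAT (SE 0.22, edgeR adjusted p = 0.0235) and 0.92 in VAT (SE 0.22, adjusted p = 0.00736). The SAT call was lost without lean replicate 1, lean replicate 3, obese replicate 3 or obese replicate 4 (adjusted p = 0.0845, 0.102, 0.0671 and 0.0549), and the VAT call without obese replicate 4 (adjusted p = 0.0556).

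**Figure D1:**
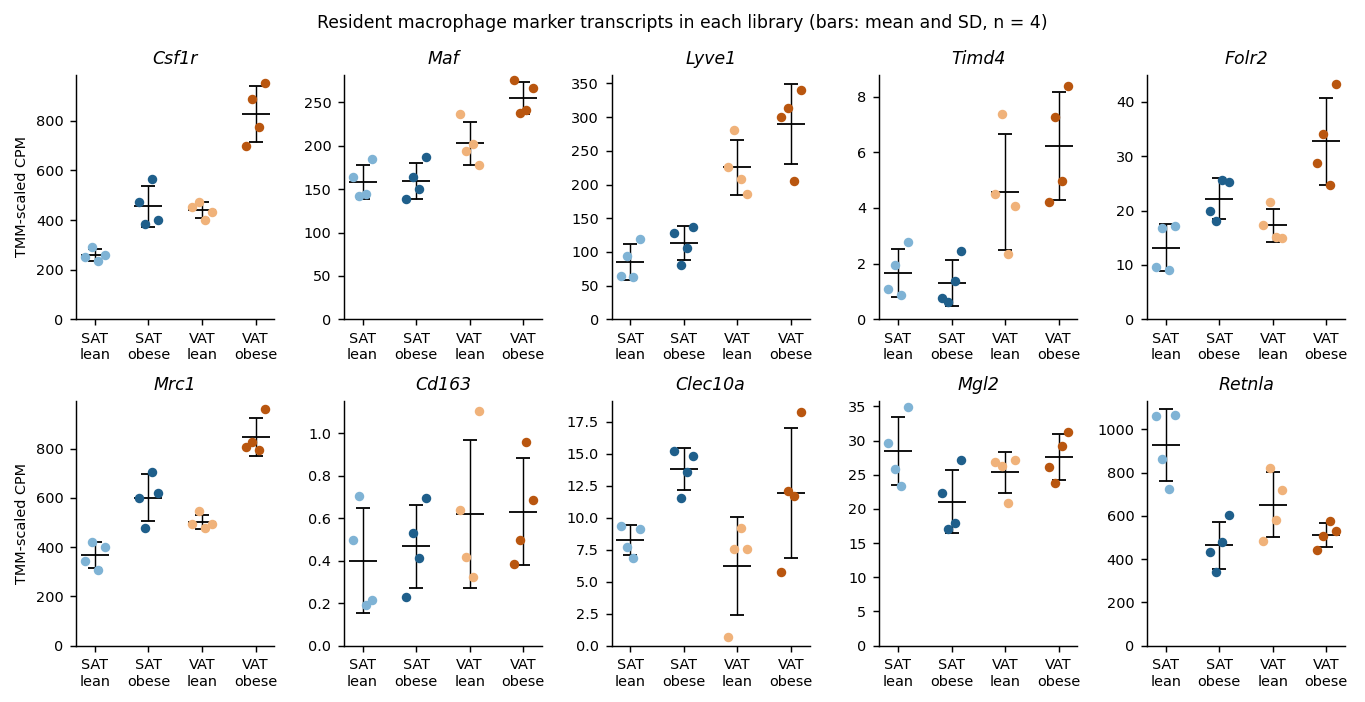
TMM-scaled CPM of the 10 markers in the 16 libraries (points, 4 per group) with the mean and SD of each group. Csf1r, Mrc1 and Folr2 were higher in obese than in lean mice in both depots without overlap, Retnla was lower in SAT of obese mice, and Lyve1 and Timd4 were higher in VAT than in SAT.

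Retnla moved the other way. It encodes RELM-alpha, also known as FIZZ1, a secreted protein induced in macrophages by IL-4 and IL-13. In SAT, Retnla (chr16:48662895-48664824, plus strand) fell from 1062, 861, 723 and 1063 CPM in the lean to 433, 342, 478 and 601 CPM in the obese libraries, and every obese library was below every lean one. The level was 2.00-fold lower in obese mice (95% interval of the log2 fold change -1.35 to -0.65, edgeR adjusted p = 0.000473). In VAT the values were 482, 821, 579.6 and 720.4 CPM in lean and 440.0, 506, 574 and 528 CPM in obese mice. These groups overlapped, and the log2 fold change of -0.35 (95% interval -0.70 to 0.00) did not pass the test (adjusted p = 0.218). The SAT call held without each single mouse.

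Thus 3 members rose and 1 fell among the 9 tested in SAT, where 6.20% of all rows tested were called higher and 4.85% lower (11.0% in all), and 3 rose and none fell in VAT, where 6.82% were called higher and 4.09% lower (10.9% in all). No member passed the study's own limit of a log2 fold change beyond 1.5, which 2.75% of rows passed in SAT and 3.17% in VAT. Without overlap between diets were 5 members in SAT (Csf1r, Mrc1, Folr2 and Clec10a higher, Retnla lower) and 4 in VAT (Csf1r, Mrc1, Folr2 and Maf higher), against 17.2% of all rows in SAT (9.61% higher and 7.64% lower) and 13.4% in VAT (8.36% higher and 4.99% lower). With the counts summed per gene, the median log2 fold change of the 9 members was 0.40 in SAT and 0.42 in VAT, and that of all 10707 genes tested was 0.00 in SAT and -0.02 in VAT. The SAT values depend on the scaling. With no TMM factors the median of all rows moved to -0.20 and the SAT calls over all rows shifted from 824 higher and 644 lower to 456 higher and 1700 lower. Csf1r, Mrc1 and Retnla stayed called on that scale, Folr2 did not (log2 fold change 0.56, adjusted p = 0.106), and Mgl2 was called lower (log2 fold change -0.65, adjusted p = 0.0155).

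**Figure D2:**
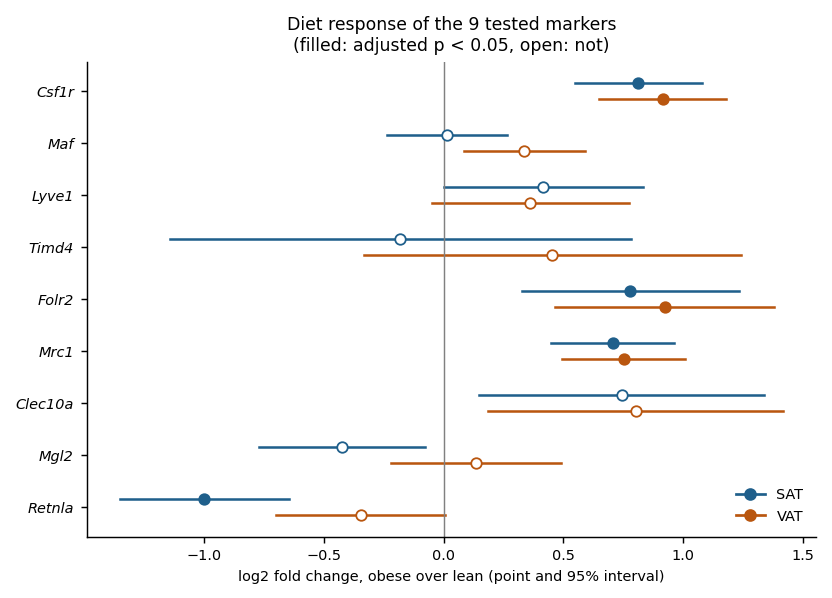
Log2 fold change of obese over lean mice, with its 95% interval, for the 9 tested markers in SAT and VAT (filled points passed an adjusted p of 0.05). Csf1r, Mrc1 and Folr2 lie to the right of 0 in both depots, Retnla lies to the left in SAT, and intervals of single tests that leave out 0 (Clec10a in both depots, Mgl2 in SAT, Maf in VAT) did not pass after adjustment.

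The other 5 tested members did not pass the test between diets. Lyve1, a receptor for hyaluronan, was 85.4 ± 26.8 CPM in lean and 113 ± 25.7 CPM in obese SAT, and 225 ± 40.5 CPM in lean and 289.9 ± 58.8 CPM in obese VAT (mean ± SD, n = 4). Its log2 fold changes were 0.42 in SAT (95% interval 0.00 to 0.83) and 0.36 in VAT (-0.05 to 0.77). Timd4, which encodes TIM4, a receptor for phosphatidylserine on dying cells, had 6 to 123 counts per library, and its intervals were wide (-1.15 to 0.78 in SAT, -0.33 to 1.24 in VAT). Maf, the transcription factor c-MAF, was 158 ± 19.7 CPM in lean and 159.7 ± 20.8 CPM in obese SAT, with a log2 fold change of 0.01 (-0.24 to 0.26), or -0.21 with no TMM factors. In VAT, Maf was 237, 194, 202 and 178 CPM in lean and 275, 238, 241 and 266 CPM in obese mice, without overlap, yet the log2 fold change of 0.34 had an edgeR adjusted p of 0.0830, and of 0.0471 without lean replicate 1.

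Clec10a and Mgl2 encode lectins that bind galactose and N-acetylgalactosamine. Clec10a was 9.34, 7.74, 6.86 and 9.15 CPM in lean and 15.2, 11.5, 13.6 and 14.8 CPM in obese SAT, where the diets did not overlap, and 0.641, 7.54, 9.22 and 7.51 CPM in lean and 5.75, 12.0, 11.7 and 18.2 CPM in obese VAT, where they did. The lowest value, in VAT of lean replicate 1, rests on 1 count. Its log2 fold changes of 0.74 in SAT and 0.80 in VAT had edgeR adjusted p-values of 0.102 and 0.0909. They were called without 1 mouse (SAT without lean replicate 1, adjusted p = 0.0397, VAT without obese replicate 1, adjusted p = 0.0430) and in both depots by edgeR with the setting legacy=FALSE or with no filter on low counts, in SAT with the SAT libraries alone (adjusted p = 0.0129) and in VAT by DESeq2 (adjusted p = 0.0497). Mgl2 was 29.7, 25.9, 23.4 and 34.9 CPM in lean and 22.3, 17.1, 17.9 and 27.1 CPM in obese SAT, and 26.9, 26.3, 20.9 and 27.2 CPM in lean and 26.1, 23.8, 29.2 and 31.3 CPM in obese VAT. Its log2 fold change was -0.42 in SAT (adjusted p = 0.110, and 0.0419 without obese replicate 4) and 0.13 in VAT (adjusted p = 0.700). Mgl2 and Clec10a thus had estimates of opposite sign in SAT, and Mgl2 passed the test in neither depot.

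Cd163 (chr6:124281606-124307560, plus strand), the scavenger receptor for haemoglobin bound to haptoglobin, had 83 counts in all, on 1 of its 3 rows, and was not tested. Each library held 1 to 10 counts. The pooled level was 0.407 CPM in lean SAT (14 counts, exact Poisson 95% interval 0.222 to 0.683), 0.461 CPM in obese SAT (23 counts, 0.292 to 0.692), 0.573 CPM in lean VAT (21 counts, 0.355 to 0.876) and 0.679 CPM in obese VAT (25 counts, 0.439 to 1.00). The intervals cover counting error only and overlap throughout, and differences of Cd163 were not tested.

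Other macrophage transcripts rose beside the markers. Of the core macrophage list (Adgre1, Fcgr1, Mertk, C1qa, C1qb and C1qc), 2 of 5 tested genes rose in SAT and 4 of 5 in VAT, against 6.66% and 7.48% of all 10707 genes tested with counts summed per gene, the scale used for every gene list. The shares of genes that fell on this scale were 5.31% in SAT and 5.65% in VAT. C1qb, a chain of complement C1q, rose by 0.63 on the log2 scale in SAT (edgeR adjusted p = 0.00593) and by 1.44 in VAT (adjusted p = 1.39e-06). Fcgr1, a high-affinity IgG receptor, rose by 0.82 (adjusted p = 0.00821) and 1.46 (adjusted p = 5.53e-05). The response of C1qb was larger in VAT (difference 0.79, adjusted p = 0.0125). This difference passed as positive for 0.887% of all genes tested and as negative for 1.81%. C1qa and C1qc passed in VAT and not in SAT, a difference between depots that did not pass (edgeR adjusted p = 0.116 and 0.627). Mertk passed in neither depot (log2 fold change 0.05 in SAT and 0.30 in VAT). The summed CPM of the list was 183 to 338 in lean and 326 to 437 in obese SAT, and 342 to 512 in lean and 862 to 1141 in obese VAT.

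Among 16 tested genes of 18 in a list of other resident and scavenger macrophage transcripts, 4 rose in SAT (Cbr2, Ccl8, F13a1 and Vsig4), 7 rose in VAT (Cbr2, Ccl8, Cd5l, Hmox1, Marco, Pf4 and Siglec1) and none fell. Their median log2 fold change was 0.31 in SAT and 0.52 in VAT. Over the single mice left out 3 to 4 of the list were called in SAT and 4 to 7 in VAT. The rise of Marco, a scavenger receptor, rests on 1 library: in VAT it was 19.9, 9.39, 4.29 and 5.08 CPM in lean and 5.75, 203, 10.6 and 41.1 CPM in obese mice, and without obese replicate 2 its log2 fold change moved from 3.02 to 1.28 and did not pass (adjusted p = 0.122). Cd5l was 30.7, 19.6, 8.26 and 7.95 CPM in lean and 15.3, 85.6, 18.7 and 113 CPM in obese VAT, and its call was lost without lean replicate 3 or 4 or obese replicate 2 or 4 (adjusted p = 0.0873, 0.107, 0.0941 and 0.170). The diets overlapped for both genes. Siglec1 in VAT lost its call without lean replicate 1, 2 or 4 or obese replicate 2 or 4, Pf4 without lean replicate 4, and Cbr2 in SAT without lean replicate 2 or 3 or obese replicate 1, 2 or 3 (adjusted p from 0.0569 to 0.139 for these genes). Vsig4, a complement receptor of resident macrophages, rose by 1.85 in SAT (edgeR adjusted p = 0.000258) and measured 0.47 in VAT (adjusted p = 0.298), and its diet responses differed between depots (difference -1.36, adjusted p = 0.0184). Ccl8, a chemokine, rose in both and more in VAT (1.31 and 2.85, difference adjusted p = 0.00318). Of 9 tested genes of a lipid-associated macrophage list, 6 rose in VAT (Cd9, Ctsk, Gpnmb, Itgax, Lgals3 and Trem2) and 2 in SAT (Itgax and Lgals3), and their median log2 fold change was 2.03 in VAT and 0.67 in SAT. Lpl, the lipoprotein lipase that adipocytes make as well, fell in both depots, and Acp5 fell in SAT. The calls of this list stayed at 6 higher and 1 lower in VAT without each single mouse, and in SAT ranged from 1 to 3 higher and 0 to 2 lower, where Lgals3 was lost without lean replicate 2 or 3 or obese replicate 2 or 4, Lpl without lean replicate 3 or 4 or obese replicate 1 or 3, and Acp5 without replicate 3 of either diet.

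Genes of cell types other than macrophages moved with diet too. In VAT 3 of 6 adipocyte genes fell (Adipoq, Lipe and Plin1), while 3 of 5 tested dendritic cell genes (Ccr7, Flt3 and Xcr1), 2 of 4 B cell genes (Cd79a and Cd79b) and 2 of 3 T cell genes (Cd3g and Cd8a) rose. Over the single mice left out these counts ranged from 1 to 3 for the adipocyte and dendritic cell lists and from 0 to 3 for the B and T cell lists. The lowest count was met without lean replicate 3 for the adipocyte list, without obese replicate 4 for the T cell list, without obese replicate 2 or 4 for the B cell list and without either of these or lean replicate 3 for the dendritic cell list. In SAT edgeR called 0 genes of these 4 lists, and 2 (Xcr1 and Cd3g) had an unadjusted p under 0.05. Of the lymphatic endothelium list, whose cells carry Lyve1, 1 of 4 tested genes (Flt4) rose in SAT, a call that held only without lean replicate 1 or obese replicate 4 among the single mice left out, and the summed CPM of the whole list was 31.9 to 53.3 in lean and 47.9 to 66.4 in obese SAT. The summed CPM of the dendritic cell list, whose cells can carry Clec10a and Mgl2, was 35.7 in lean and 38.1 in obese SAT, and 41.3 in lean and 53.0 in obese VAT (means of 4 libraries). The part of these cell types in the values of the markers was not tested.

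**Figure D3:**
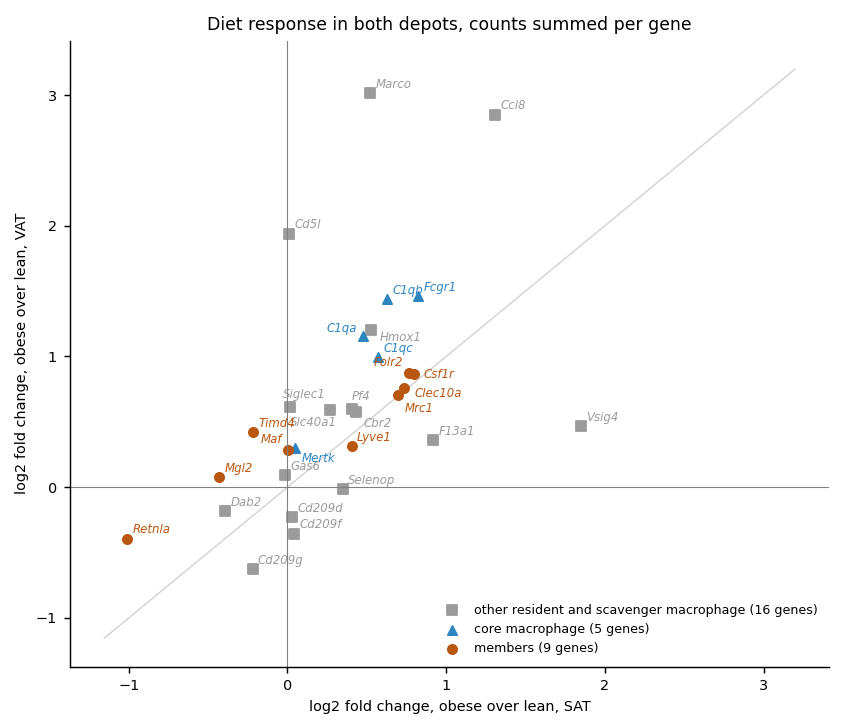
Log2 fold change of obese over lean mice in SAT (horizontal) and VAT (vertical), counts summed per gene, for 9 members, 5 core macrophage genes and 16 other resident and scavenger genes (grey line: equal change). Csf1r, Mrc1, Folr2 and Clec10a lie close to the line, whereas the C1q genes, Fcgr1, Ccl8, Marco and Cd5l lie above it, Marco by a value that rests on obese replicate 2.

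Genes of the signals known to keep or shape these cells were mostly unmeasured or did not pass. Of 9 ligand and receptor genes (Csf1, Il34, Csf2, Il4, Il13, Il33, Il4ra, Il13ra1 and Tgfb1), 3 were tested, and Csf1 had no count in any library. Il13ra1, a subunit of the IL-13 receptor, rose in both depots (log2 fold change 0.65 in SAT, edgeR adjusted p = 0.0129, and 0.84 in VAT, adjusted p = 0.00184), and Il4ra, the IL-4 receptor, rose in SAT (0.95, adjusted p = 0.0419). Of 10 transcription factors, 8 were tested. Among these, Nr1h3 (LXR-alpha) rose in SAT (0.77, edgeR adjusted p = 0.0300) and Spi1, which encodes PU.1, rose in VAT (1.05, adjusted p = 0.0143, and 0.0628 without obese replicate 4). In SAT the call of Il13ra1 was lost without replicate 3 of either diet, that of Il4ra without lean replicate 2, 3 or 4 or obese replicate 1 or 3, and that of Nr1h3 without lean replicate 2 or 3 or obese replicate 1 or 2 (adjusted p from 0.0531 to 0.147). Stat6, which carries the IL-4 and IL-13 signal, measured 0.09 and 0.19 and did not pass. Of 7 tested genes of an alternative activation list, Chil3 rose in both depots (1.93, adjusted p = 0.00614, and 2.36, adjusted p = 0.00151), Tgm2 in SAT and Ccl22 in VAT, and no gene of the list fell, unlike Retnla in SAT.

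The diet responses of SAT and VAT were compared directly with the mouse as a block. edgeR called 0 of the 9 tested members, where 2.17% of all rows were called, while 2 had an unadjusted p under 0.05 and DESeq2 called 1. The largest differences after Timd4, whose interval was widest, were those of Retnla and Mgl2. Retnla was 0.68 higher in VAT than in SAT on the log2 scale of the response (95% interval 0.27 to 1.09, unadjusted p = 0.00221, adjusted p = 0.0724), and DESeq2 gave an adjusted p of 0.0433. Over the single mice left out, the adjusted p of Retnla fell below 0.05 without lean replicate 2 (adjusted p = 0.0405). For Mgl2 the difference was 0.57 (0.14 to 1.00, unadjusted p = 0.0123, adjusted p = 0.172). The intervals of the other differences were -0.25 to 0.47 for Csf1r, -0.27 to 0.37 for Mrc1, -0.41 to 0.69 for Folr2, -0.55 to 0.40 for Lyve1, -0.02 to 0.67 for Maf, -0.80 to 0.91 for Clec10a and -0.22 to 1.81 for Timd4.

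Lyve1 and Timd4 differed most between depots. In VAT of lean replicates 1 to 4 Lyve1 (chr7:110448585-110462460, minus strand) was 225, 281, 208 and 187 CPM against 64.7, 94.3, 63.2 and 119 CPM in SAT of the same mice, a ratio of VAT over SAT of 3.49, 2.98, 3.29 and 1.56. In obese mice it was 299.7, 314, 205 and 340.3 CPM against 129, 80.0, 106 and 137 CPM, with ratios of 2.33, 3.93, 1.93 and 2.48. All VAT libraries lay above all SAT libraries. The fitted difference of VAT and SAT from the same mice was 2.71-fold in lean (log2 1.44, SE 0.17, edgeR adjusted p = 1.21e-06) and 2.57-fold in obese mice (log2 1.36, SE 0.16, adjusted p = 1.18e-06).

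Timd4 (chr11:46701620-46735177, plus strand) measured 4.48, 7.36, 2.36 and 4.09 CPM in VAT and 1.07, 1.97, 0.858 and 2.76 CPM in SAT of lean mice. In obese mice it was 4.22, 7.26, 4.98 and 8.39 CPM in VAT and 0.769, 0.636, 1.38 and 2.47 CPM in SAT. It was higher in VAT in 8 of 8 mice, by 1.48-fold to 11.4-fold. The fitted difference was 2.75-fold in lean (log2 1.46, SE 0.36, edgeR adjusted p = 0.00634, and 0.0775 without lean replicate 2) and 4.77-fold in obese mice (log2 2.26, SE 0.33, adjusted p = 1.48e-05).

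Other cell types that carry these genes also differed between the depots. All 4 tested genes of a lymphatic endothelium list (Ccl21a, Flt4, Mmrn1 and Pdpn) were higher in VAT under both diets, as 9.35% of all genes tested were in lean and 17.1% in obese mice, and the list's summed CPM was 31.9 to 66.4 in SAT and 115 to 181 in VAT. Prox1 and Reln of that list had no count in any library. Of the B cell list, 3 of 4 tested genes were higher in VAT of lean and 4 of 4 in VAT of obese mice, with a summed CPM of 4.00 to 8.28 in SAT and 29.2 to 319 in VAT. The part of these cells in the depot difference of Lyve1 and Timd4 was not tested. Core macrophage genes were higher in VAT for 2 of 5 tested in lean (C1qa and C1qb) and 4 of 5 in obese mice.

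Csf1r, Mrc1 and Maf were also higher in VAT than in SAT of the same mice under both diets. The difference of Csf1r was 0.76 on the log2 scale in lean (SE 0.12, edgeR adjusted p = 0.000104) and 0.87 in obese mice (SE 0.12, adjusted p = 1.05e-05), and VAT exceeded SAT in 8 of 8 mice. Mrc1, higher in VAT in 8 of 8 mice, differed by 0.46 (SE 0.11, adjusted p = 0.00493, and 0.0602 without lean replicate 3) and 0.51 (SE 0.11, adjusted p = 0.00106). Maf (chr8:116409632-116434579, minus strand), higher in VAT in 7 of 8 mice, differed by 0.36 in lean (adjusted p = 0.0437) and 0.68 in obese mice (adjusted p = 0.000107). The lean call of Maf was lost without any of lean replicates 1, 2 and 3 and obese replicate 3 (adjusted p = 0.166, 0.161, 0.204 and 0.0538), with DESeq2 (adjusted p = 0.0576), with no filter on low counts (edgeR adjusted p = 0.180) and without the mouse block (adjusted p = 0.0608). Folr2 passed in obese mice (0.54, adjusted p = 0.0245) and lost that call without obese replicate 1, 2 or 4 (adjusted p = 0.0724, 0.145 and 0.145) or with no filter (adjusted p = 0.115), and its difference in lean mice was 0.41 (95% interval 0.00 to 0.81).

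Retnla and Mgl2 stood apart in this comparison as well. Retnla was lower in VAT than in SAT in 4 of 4 lean mice (ratios of 0.454, 0.954, 0.802 and 0.677), with a log2 difference of -0.52 (edgeR adjusted p = 0.0134). That call was lost without lean replicate 1 or 4 (log2 difference -0.32 and -0.48, adjusted p = 0.125 and 0.0511) and without the mouse block (adjusted p = 0.0503). In obese mice the ratios were 1.02, 1.48, 1.20 and 0.878, and the difference of 0.17 did not pass (adjusted p = 0.396). With no TMM factors it was 0.51 and passed (adjusted p = 0.00251), on a scale where the median of all rows was 0.37. Mgl2 had ratios of 0.907, 1.02, 0.895 and 0.779 in lean and 1.17, 1.39, 1.64 and 1.15 in obese mice. It was called higher in VAT of obese mice (0.41, adjusted p = 0.0376), and not without lean replicate 3 or obese replicate 1, 2 or 3 (adjusted p = 0.0507, 0.0539, 0.109 and 0.208), with no filter (adjusted p = 0.406) or without the mouse block (adjusted p = 0.0873). Clec10a did not pass under either diet (-0.26 in lean and -0.20 in obese mice, the latter 0.13 with no TMM factors). In all, 6 of the 9 tested members differed between depots in lean mice, where 14.8% of all rows did, and 7 in obese mice, where 29.4% did. For 16.8% of all rows VAT was higher than SAT in each of the 4 lean mice, for 17.8% it was lower in each of them, and for 22.9% it was higher in each of the 4 obese mice.

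**Figure D4:**
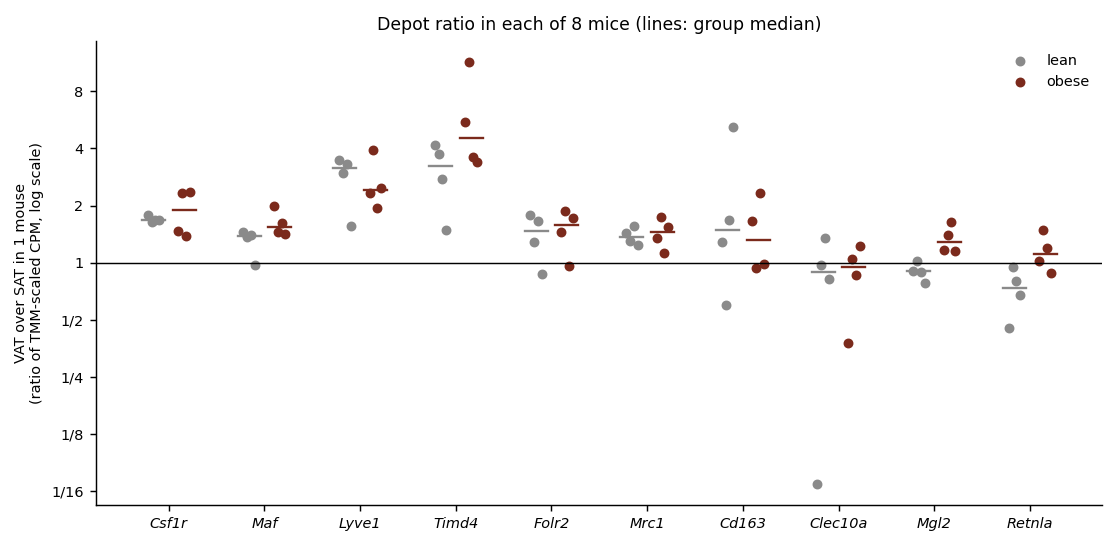
Ratio of TMM-scaled CPM in VAT over SAT of the same mouse, on a log scale, for 4 lean and 4 obese mice (lines: medians). Lyve1, Timd4, Csf1r and Mrc1 lie above 1 in 8 of 8 mice, Retnla lies below 1 in 4 of 4 lean mice, and the lowest Clec10a point rests on 1 count.

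Ordered by mean level, Csf1r, Mrc1 and Folr2 were lowest in lean SAT, followed by lean VAT, obese SAT and obese VAT. Lean VAT and obese SAT overlapped for the 3 genes, and the other neighbours overlapped for Folr2 alone. Lyve1 and Maf had the order lean SAT, obese SAT, lean VAT and obese VAT. The neighbours lean SAT and obese SAT overlapped for both genes, obese SAT and lean VAT overlapped for Maf only, and lean and obese VAT overlapped for Lyve1 only. Retnla had the order obese SAT, obese VAT, lean VAT and lean SAT, and each pair of neighbours overlapped. For Timd4, Mgl2 and Cd163 all neighbours in the order overlapped too, as they did for Clec10a.

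The markers were next related to macrophage RNA as a whole, as counts per 100 counts of the core macrophage list in the same library. Most of those core counts were of C1qa and C1qb, so the ratio compares a marker with these complement genes above all. The core list itself rose, by 0.60 on the log2 scale in SAT and by 1.35 in VAT, and the ratio of a gene with no change of its own falls by as much. Of 10702 genes outside the list, 22.5% had a lower ratio in all obese than in all lean libraries of SAT and 57.5% in those of VAT, while 1.48% and 0.439% had a higher one. The median log2 difference over the genes without a count of 0 was -0.58 in SAT and -1.31 in VAT. Per 100 core counts, Retnla had 395, 375, 394 and 315 in lean SAT and 99.1, 91.9, 126 and 184 in obese SAT, and 94.0, 214, 169 and 201 in lean VAT and 38.6, 54.0, 66.6 and 48.0 in obese VAT. In both depots the obese libraries lay below the lean ones, with a difference of mean log2 ratios of -1.61 in SAT and -1.67 in VAT. Mgl2 had 10.4 to 12.8 in lean and 4.59 to 8.33 in obese SAT, and 5.25 to 7.64 in lean and 2.28 to 3.39 in obese VAT (log2 differences -1.04 and -1.24).

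In VAT the ratios of Lyve1 (log2 difference -0.99), Mrc1 (-0.60) and Maf (-1.01) were also lower in all obese than in all lean libraries, but these differences were smaller than the median of all genes. The markers without overlap, 2 of 10 in SAT and 5 of 10 in VAT, made up a share near that of all genes, so the separation is not a result about the markers. Retnla lay below the median of all genes in both depots and Mgl2 in SAT, where its difference of -1.04 stood against -0.58, whereas in VAT Mgl2 was close to it (-1.24 and -1.31). Lyve1 ranged from 44.0 to 73.3 in lean and 23.8 to 33.5 in obese VAT per 100 core counts. Each of these 7 differences had p = 0.0286 in a two-sided exact permutation test of 4 against 4 libraries, the smallest p such a test can give. After Benjamini-Hochberg adjustment over 10 members and 2 depots these permutation tests had an adjusted p of 0.0816, so 0 of 20 passed. In SAT the ratios of Csf1r (log2 difference 0.20, p = 0.429), Mrc1 (0.10, p = 0.514) and Folr2 (0.20, p = 0.571 by the same exact permutation test) did not pass. The choice of the reference matters: per count of Cd68, a lysosomal protein of macrophages that itself rose in both depots (log2 fold change 1.43 and 2.31), 7 ratios in SAT and 9 in VAT were lower in obese mice at an adjusted p of 0.0357, each without overlap between diets. A lower ratio without overlap was found for 70.7% of all 10706 other genes in SAT and 78.0% in VAT, so these counts too are near those of all genes and not a result about the markers.

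**Figure D5:**
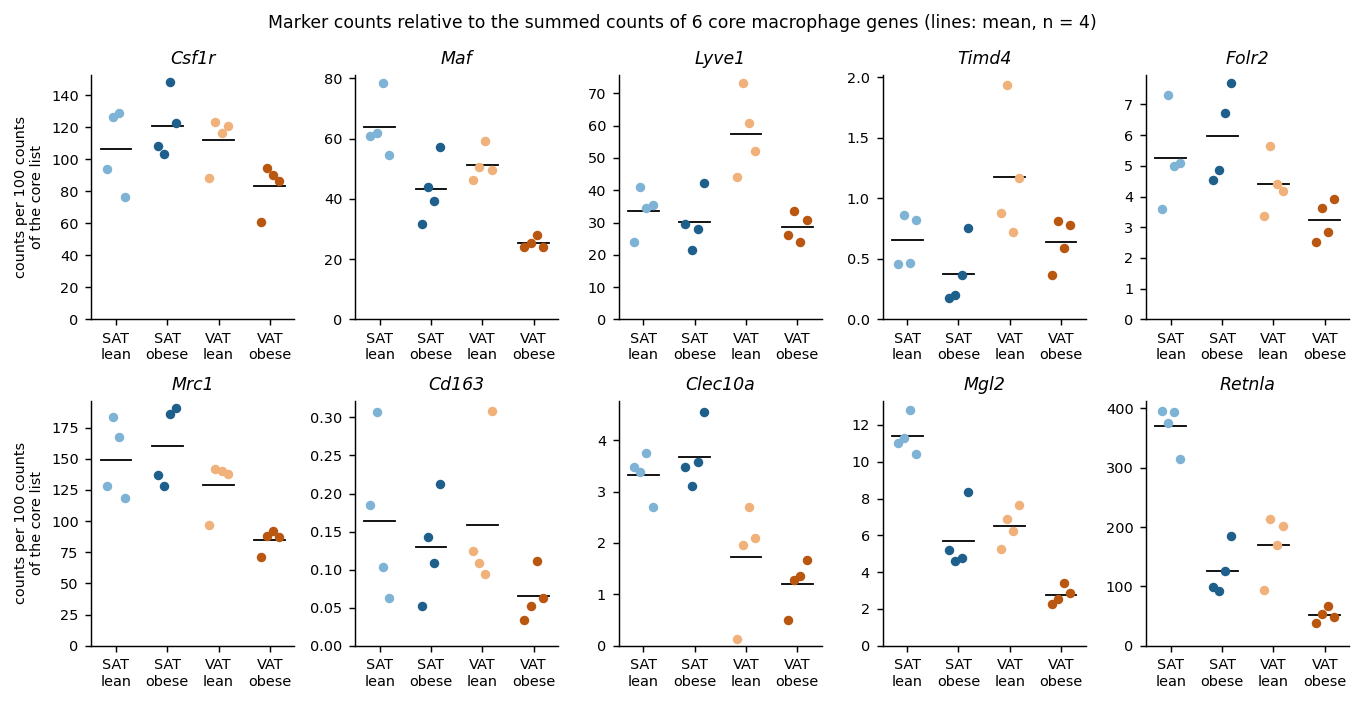
Counts of each marker per 100 counts of 6 core macrophage genes in the same library (points, 4 per group; lines: means). The ratios of Retnla and Mgl2 were lower in obese mice in both depots without overlap and those of Lyve1, Mrc1 and Maf in VAT, as they were for 22.5% of all genes in SAT and 57.5% in VAT, where the core list itself rose. Csf1r and Folr2 overlapped between diets in both depots.

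The members did not vary as 1 block. Across the 16 libraries the 36 pairs of the 9 tested members had Pearson correlations of log2 CPM from -0.62 (Retnla and Csf1r) to 0.96 (Mrc1 and Csf1r), with a median of 0.33. On deviations from the 4 group means, which leave out the differences between diets and depots, they ranged from -0.49 (Clec10a and Maf) to 0.86 (Mrc1 and Folr2), with a median of 0.39. Lyve1, Timd4, Folr2 and Mrc1 varied together on these deviations, with 6 correlations from 0.72 to 0.86. The points share libraries, depth and the 4 groups, and these values are descriptions. By the median correlation with the 9 members over 16 libraries, the most similar of 10698 other genes were Pmaip1 (0.83), Fcrls (0.83), Gpr171 (0.83), Antxr1 (0.83) and Bcl2a1d (0.83) on levels. On deviations they were Il13ra1 (0.69), Poglut3 (0.68), Lyz2 (0.67), Antxr1 (0.67) and Lrrn4cl (0.65).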

How the data were processed

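Total RNA was extracted from SAT and VAT of 8 mice after visible vessels had been dissected away. Poly-A RNA libraries made with a directional kit were sequenced as paired-end reads. The deposited table holds, for each RefSeq transcript of build GRCm39, the raw read counts and the CPM of 16 libraries, made by the authors with Trim Galore 0.6.6, HISAT2 2.2.0, HTSeq 0.13.5 and edgeR 3.34.0. The deposited CPM equal the counts divided by each library's total. Whether counting used strand, and how reads shared by transcripts were treated, is not given in the sources used here. Symbols came from a RefSeq gene table and named 82.0% of rows.

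From the counts, rows above 1 CPM in at least 3 libraries were scaled by TMM (edgeR 4.0.16, R 4.3.3) and tested with glmQLFit and glmQLFTest, Benjamini-Hochberg adjusted over 13288 rows, with a limit of 0.05. Diets were compared in 1 model of the 4 groups, depots and the difference of diet responses with the mouse as a block. CPM are means ± SD over 4 mice. The methods state that each mouse gave both depots and that contrasts controlled for this pairing, and that libraries of the same diet and number are 1 mouse was taken from the numbers in the labels. Their deviations from group means correlated from -0.01 to 0.17 (median 0.08, 8 pairs), against a median of -0.04 for other numbers, and 7 of 16 libraries correlated best with their own number. Within-group libraries differed beyond counting noise (chi-square per degree of freedom at least 9.88). Ratios to the core list were tested by two-sided exact permutation over libraries. Correlations used log2 CPM with a prior count of 2. Sequences were read from RefSeq promoters (GRCm38.p6) and GENCODE vM39 (GRCm39) with Python 3.11.15.

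On simulated counts in which 200 of 13288 rows changed by 2 on the log2 scale, edgeR recovered 93.5% of them for SAT, 91.5% for VAT, 86% and 93.5% for the depots in lean and obese mice and 70% for the difference of diet responses. Of the rows called, 3.11%, 3.17%, 2.27%, 6.5% and 2.10% were false, in the same order. The simulation used the same spread for all rows and no mouse effect. The planted change was larger than the diet response of any member, so these shares do not tell how often such responses would be found. The 10 genes and the 17 lists of 121 genes were chosen with earlier results of these data known. All 10 are named, as are list genes that passed a test (some are not reported here), the core list and the 5 genes most similar in pattern on each view. Alternatives were DESeq2 1.42.0, RLE factors, no filter, counts summed per gene, edgeR with legacy=FALSE, 1 depot alone, the replicate block, other ratio denominators and pseudocounts, each mouse left out and, chosen after seeing the data, no scaling factors and list genes with each mouse left out. With 4 mice per group and 1256082 to 16614407 counts per library, genes of few counts had wide intervals.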

Additional observations from a re-analysis of the deposited data

Results flagged for a closer look

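Of the 40 groups of 4 libraries formed by 10 markers, 1 held a library far from the rest, where chance flags about 1 in 20. Mgl2 in VAT of lean mice stood at 20.9 CPM in replicate 3 against 26.3 to 27.2 CPM in the other replicates, a gap of 0.864 of the group's range. Without lean replicate 3 the edgeR adjusted p of Mgl2 between depots of obese mice moved from 0.0376 to 0.0507. The cause was not tested.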

How the results depend on the processing

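Of the log2 fold changes of the 9 tested markers, 306 kept their direction and their side of the threshold under the alternatives other than leaving out a mouse, 8 lost and 12 gained a call and 6 changed sign. With each mouse left out, 316 kept both, 20 lost and 5 gained a call and 19 changed sign. The causes were not tested. The number of markers called stayed from 3 to 4 in SAT, 2 to 4 in VAT, 4 to 6 between depots of lean and 5 to 7 between depots of obese mice over the mice left out. For the difference of diet responses it was 0 to 1 over the mice left out, 1 with DESeq2 (Retnla) and 2 with no scaling factors (Mgl2 and Retnla). With Cd68 as the denominator, 7 of 10 ratios in SAT and 9 of 10 in VAT passed in place of 0, where 70.7% and 78.0% of all other genes were lower in obese mice without overlap, so these counts are not a result about the markers.

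With no scaling factors the median of all rows moved to -0.20 in SAT, 0.01 in VAT, 0.15 and 0.37 between depots of lean and obese mice and 0.23 for the difference of diet responses, and the calls over all rows to 825 higher and 600 lower in VAT (906 and 543 with TMM), 1424 and 608 between depots of lean (1063 and 909), 3981 and 841 of obese mice (2116 and 1789) and 369 and 104 for the difference (117 and 171). Signs changed on this scale for Maf in SAT (-0.21), Clec10a between depots of obese mice (0.13) and Lyve1 in the difference (0.12), and Retnla was called higher in VAT of obese mice (0.51, edgeR adjusted p = 0.00251). With no filter the differences of Clec10a (-0.026) and Mrc1 (-0.025) changed sign, and with SAT alone Maf did (-0.0022). Per count of Cd68 the log2 ratios of Clec10a (-0.69 in SAT, -0.93 in VAT), Csf1r (-0.64), Folr2 (-0.64) and Mrc1 (-0.73 in SAT) turned negative, and that of Clec10a in VAT did with pseudocounts of 0.5 (-0.12) and 2 (-0.34).

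Over the mice left out, log2 fold changes that changed sign ranged from -0.56 to 0.045 and from -0.40 to 0.026 for Clec10a between depots of lean and obese mice, from -0.071 to 0.081 for Maf and from -0.67 to 0.092 for Timd4 in SAT, and in the difference of diet responses from -0.26 to 0.35 for Clec10a, -0.019 to 0.25 for Csf1r, -0.10 to 0.35 for Folr2, -0.37 to 0.063 for Lyve1 and -0.047 to 0.16 for Mrc1. The log2 ratios to the core list that changed sign ranged from -0.65 to 0.11 for Cd163 in SAT and from -1.02 to 0.46 for Clec10a in VAT.

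Lean and obese mice share a replicate number, which the labels do not tie to a batch. Lean and obese libraries of 1 depot with the same number correlated, on deviations from group means, from -0.09 to 0.17 (median 0.07, 8 pairs) against a median of -0.02 for other numbers, and 7 of 16 libraries correlated best with their own number, values close to those of SAT and VAT of 1 mouse (median 0.08, 7 of 16). With the replicate block 5 markers were called in SAT, Mgl2 being added (-0.43, edgeR adjusted p = 0.0497), and 3 in VAT. Without pairing by mouse 4 were called between depots of lean mice, where Maf (adjusted p = 0.0608) and Retnla (adjusted p = 0.0503) were lost, 6 between depots of obese mice, where Mgl2 was lost (adjusted p = 0.0873), and 0 for the difference. Adgre1 as the denominator was not run because of its counts of 0, and ratio calls with a mouse left out were not made because 3 against 4 libraries cannot go below p = 0.0571 in the exact permutation test. Few counts limit Cd163, Timd4 and, in VAT, Clec10a.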

Other observations

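Vsig4, Cd5l, Gas6, F13a1 and Siglec1 of the other resident and scavenger list were higher in VAT than in SAT of lean mice, and Ccl8, Cd209d and Hmox1 were lower. In obese mice Cbr2, Cd5l, Gas6, Marco and Siglec1 were higher in VAT and Cd209d was lower, among 16 tested genes. Marco was 5.75, 203, 10.6 and 41.1 CPM in VAT of obese replicates 1 to 4. In SAT of the same mice it was 8.31, 8.47, 7.52 and 7.02 CPM, so replicate 1 went the other way. Depot calls of list genes were not repeated with a mouse left out. Of the alternative activation list, Ccl22 and Pdcd1lg2 were among the genes higher in VAT under both diets, and Tgm2 was higher there in lean mice. Pparg, the adipogenic nuclear receptor, was lower in VAT of obese mice, and of the 8 tested transcription factors edgeR called 0 in lean mice while 1 (Gata6) had an unadjusted p under 0.05 there.

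Of the general myeloid list 5 of 7 tested genes rose with obesity in SAT (Cd68, Cx3cr1, Laptm5, Lyz2 and Tyrobp) and 6 of 7 in VAT (the same 5 genes and Fcer1g). In SAT the calls fell to 2 without lean replicate 2 or obese replicate 3 and to 3 without lean replicate 3 or obese replicate 1, and over the single mice left out Cx3cr1, Lyz2 and Tyrobp each lost theirs at least once. Ccr2, the 1 tested gene of 4 in the monocyte list, was higher in VAT of lean (log2 difference 1.44) and obese mice (1.55) and did not pass between diets. Flt4, a receptor of lymphatic endothelium, was the 1 gene of that list that rose in SAT of obese mice, and in VAT edgeR called 0 of 4, with 0 at an unadjusted p under 0.05. Among lists of tissues that lie near the depots, Actn3 of skeletal muscle and Epcam of intestinal epithelium were higher in VAT, and of the exocrine pancreas list Pnlip was higher in VAT and Cela1 lower there under both diets, while Cela1 rose with obesity in both depots. Actn3 was the 1 tested gene of 5 in the muscle list, and Epcam was the 1 gene called of 3 tested in the intestinal list. Lgals4 of the intestinal list was 13.1 to 19.7 CPM in SAT and 8.97 to 17.3 CPM in VAT of lean mice.

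Single markers had their own nearest genes over the 16 libraries, as Pearson correlations of log2 CPM given without a test. Csf1r was most similar to Ptafr (0.98), Lyve1 to C3 (0.96), Mrc1 to Naip6 (0.96), Maf to Klf2 (0.97) and Retnla to Strip2 (0.86).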
